A study of Homo sapiens with 6 samples.

Results

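Transcripts of the immunoproteasome and of the machinery that loads peptides onto MHC class I molecules were compared between the human lung adenocarcinoma lines CL1-0 and CL1-5. The set holds 10 genes, PSMB8, PSMB9, PSMB10, PSME1, PSME2, TAP1, TAP2, TAPBP, ERAP1 and ERAP2, and its members are the array probe sets whose platform annotation names one of these genes and no other. This rule took 22 of 54675 probe sets and covered 9 of the 10 genes. The probe set for PSME2 also carries the symbol of the microRNA gene MIR7703, so no value is given for PSME2. Both lines derive from the parental line CL1. CL1-0 is labelled poorly invasive and CL1-5 highly invasive, and both were grown untreated in serum-supplemented RPMI medium. The labels name no treatment or genetic change. Each group is a single cell line, of which 3 biological repeats were measured as total RNA, each on a one-colour array of its own. Nothing in the labels says that the repeats were separate cultures, so p-values measure only the spread between these arrays, which may be technical.

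The proteasome is the barrel-shaped protease that cuts ubiquitin-marked proteins into peptides. In cells exposed to interferon, its catalytic subunits beta5, beta1 and beta2 (PSMB5, PSMB6, PSMB7) are replaced in newly built particles by beta5i, beta1i and beta2i (PSMB8, PSMB9, PSMB10), and the PA28 cap (PSME1 with PSME2) can bind the barrel and ease the exit of peptides. The transporter TAP (TAP1 with TAP2) carries peptides into the endoplasmic reticulum, ERAP1 and ERAP2 trim their amino ends there, and tapasin (TAPBP) holds empty class I molecules at the transporter while peptides are exchanged. Tumour cells that carry little of this machinery present fewer peptides to cytotoxic T cells.

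Most of these genes share a short stretch of DNA at or near an annotated start site, which is shown as a description. Whether it has a part in the difference between the lines was not tested. The promoter windows are RefSeq's (assembly GRCh38.p14) and run from 250 bases before to 50 after a start site, 300 bases in all. They were searched on both strands for the interferon regulatory factor motif, GAAA followed by any 2 bases and GAAA, and for the gamma-activated motif TTCNNNGAA, which reads the same on both strands. All 10 genes matched the RefSeq table, with 14 windows between them. Each sequence below is written 5′ to 3′ on the strand of its gene, and capitals mark motif matches. TTTC, 2 bases and TTTC is the first motif on the opposite strand. In PSMB8 the first capitals are the gamma-activated motif, and in TAP1 and TAPBP the capitals are 2 overlapping matches.
PSMB8, chr6:32844028-32844137, minus strand: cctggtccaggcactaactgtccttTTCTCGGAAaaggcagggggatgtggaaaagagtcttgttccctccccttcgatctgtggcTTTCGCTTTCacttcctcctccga
PSMB10, chr16:67936837-67936896, minus strand: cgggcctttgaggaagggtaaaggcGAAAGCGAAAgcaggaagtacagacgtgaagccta
PSME1, chr14:24136174-24136213, plus strand: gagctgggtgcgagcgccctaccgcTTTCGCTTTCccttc
PSME2, chr14:24146604-24146663, minus strand: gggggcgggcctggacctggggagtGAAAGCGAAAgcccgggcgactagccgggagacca
TAP1, chr6:32853705-32853954, minus strand: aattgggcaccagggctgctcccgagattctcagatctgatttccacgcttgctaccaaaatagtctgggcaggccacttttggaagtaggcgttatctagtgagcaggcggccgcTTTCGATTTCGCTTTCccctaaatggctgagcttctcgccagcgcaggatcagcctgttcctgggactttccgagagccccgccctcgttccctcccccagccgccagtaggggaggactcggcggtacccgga
TAP2, chr6:32838763-32838822, minus strand: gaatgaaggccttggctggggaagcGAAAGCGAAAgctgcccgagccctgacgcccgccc
TAPBP, chr6:33314059-33314123, minus strand: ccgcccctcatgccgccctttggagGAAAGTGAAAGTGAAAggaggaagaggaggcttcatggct
ERAP1, chr5:96807926-96807968, minus strand: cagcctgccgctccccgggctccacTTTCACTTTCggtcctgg
ERAP2, chr5:96876445-96876504, plus strand: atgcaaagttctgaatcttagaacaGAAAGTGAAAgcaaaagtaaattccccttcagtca

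The interferon regulatory factor motif lay in 9 of the 14 windows and in at least 1 window of 9 of the 10 genes, against 3.57% of all 35116 windows and 4.38% of all 27305 genes in the table. In PSMB8, PSMB10, PSME2, TAP2, TAPBP and ERAP2 the match nearest to the start site began between 4 bases (PSMB8) and 58 bases (TAP2) before the first transcribed base. In ERAP1 it began 2 bases and in PSME1 5 bases after that base. PSMB8, TAP1, ERAP1 and ERAP2 each have a further annotated start, whose window held no match to this motif. PSMB9 had no match in its window. TAP1 and PSMB9 are transcribed in opposite directions from start sites 488 bases apart, and the TAP1 matches, which begin 134 and 128 bases before the TAP1 start, lie 354 to 369 bases before the start of PSMB9. The gamma-activated motif was found in 2 of the 14 windows, 65 bases before the start of PSMB8 and 189 bases before another annotated start of TAP1, against 7.66% of all windows. Of the 2 windows of the constitutive PSMB5, neither held the first motif, and 1 held the gamma-activated motif at 2 places, 158 and 15 bases before the start. No window of PSMB6 or PSMB7 is reported, so among the constitutive subunits this describes PSMB5 alone. A match describes letters in a window, and binding was not measured.

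The marker genes of the labelled tissue were checked first. The keratin KRT18, an epithelial cytoskeletal gene, lay between 38.5 and 54.2 signal units in CL1-0 and between 3821 and 4653 in CL1-5, read by a probe set of the kind that can bind related sequences too. KRT8, also read by a probe set of that kind, lay between 48.3 and 50.2 in CL1-0 and between 548 and 562 in CL1-5. The epithelial adhesion gene EPCAM was between 27.5 and 32.8 in CL1-0 and between 9.75 and 11.3 in CL1-5, KRT19 did not exceed 11.9 in either line, and the lung lineage factor NKX2-1, by its tested probe set, lay between 24.0 and 30.5 in CL1-0 and between 24.4 and 25.4 in CL1-5. A brighter NKX2-1 probe set, of the cross-binding kind, read 63.3 to 83.4 over both. For comparison, array medians lay between 30.2 and 30.9 and the 40th percentile, used here as the limit of measurement, between 19.5 and 20.3. By their brightest probe sets the 8 epithelial and lung markers summed to 374 to 434 signal units in CL1-0 and 4607 to 5410 in CL1-5, where most of it was KRT18, with 7 and 6 of them above that percentile. Of the 7 tested, 2 (KRT8 and KRT18) were higher in CL1-5 and 1 (EPCAM) lower (0 lower without CL1-0 repeat 1 or 2, and 2 with the repeat number as a block). CDH1, NKX2-1, SFTPB and NAPSA did not pass. EPCAM passed the filter through its CL1-0 arrays alone, so a difference was a condition of its being tested. Over all tested genes 23.3% were higher and 28.3% lower, so these counts are not read as a trait of the markers. Immune cells carry much immunoproteasome, and 11 leukocyte markers summed to 267 to 327 in CL1-0 and 375 to 425 in CL1-5, with 5 to 6 of them above the percentile in each line. The defining leukocyte gene PTPRC (CD45) lay under it in all 6 arrays, between 9.0 and 10.7 in CL1-0 and between 7.11 and 8.38 in CL1-5. Of 5 tested leukocyte markers 1 was higher, the lysosomal membrane gene LAPTM5 (34.5 to 48.9 in CL1-0 and 127 to 163 in CL1-5). That count, too, stands beside 23.3% higher over all tested genes. The part of these markers in the results was not tested. In bulk RNA, fewer cells of a type and less RNA per cell cannot be told apart.

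All 9 measured genes were higher in CL1-5, each with no overlap between the lines and each by at least 2-fold. Across the 14828 genes tested, 23.3% were called higher in CL1-5 and 28.3% lower (limma, Benjamini-Hochberg adjusted p under 0.05), 8.51% were called and at least 2-fold higher, and in 26.6% the 3 CL1-5 arrays all lay above the 3 CL1-0 arrays. The median log2 fold change of the 9 genes was 2.74, or 2.27 with dim genes at their bound, beside -0.03 over all tested genes. PSMB8 and ERAP2 passed the filter on low signals through their CL1-5 arrays alone, so for them a difference was a condition of being tested. The other 7 genes were above the limit of measurement on arrays of both lines. By size, PSMB8 and PSMB9 came first, then TAP1 and TAP2, with ERAP2 known only as a bound. TAPBP, PSME1, ERAP1 and PSMB10 had the smaller changes, between 2.04 and 1.47 on the log2 scale. In this order TAPBP and PSME1 differed by less than the sum of their standard errors, as did ERAP1 and PSMB10.

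**Figure D1:**
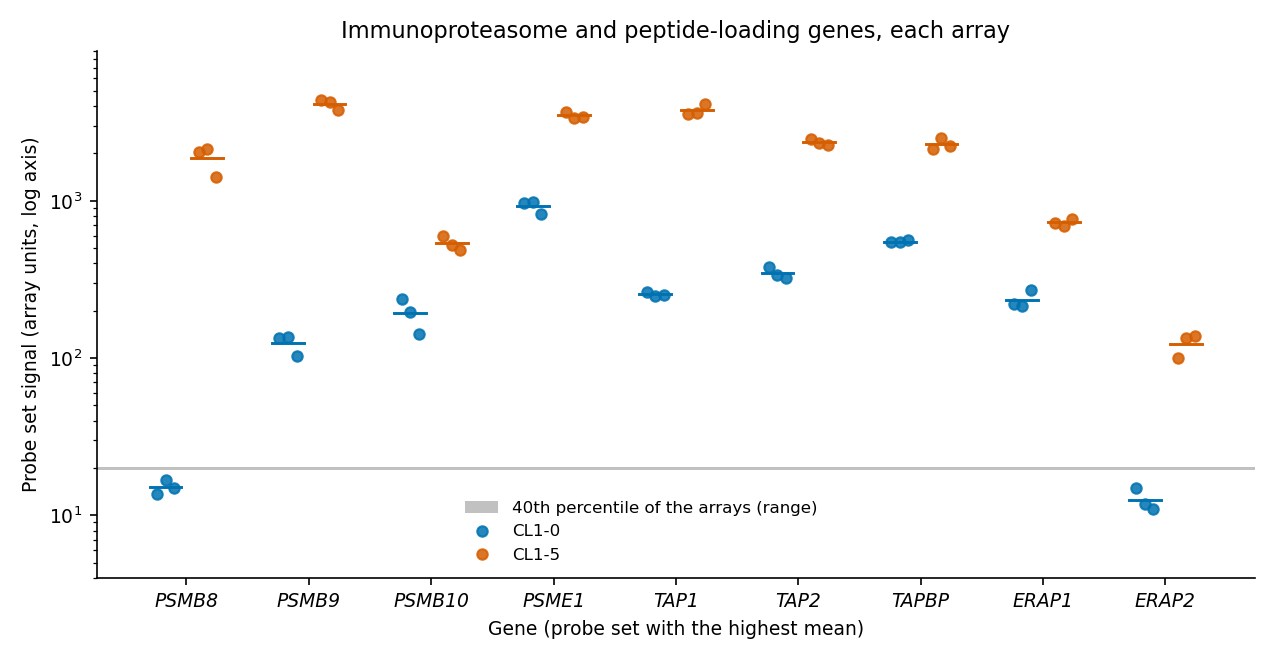
Signal of the probe set used for each of the 9 genes on every array (log axis), with CL1-0 in blue, CL1-5 in orange, points for the 3 arrays of a line and bars for their mean, and a grey band for the 40th percentile of the arrays. In each gene the 3 CL1-5 points lie above the 3 CL1-0 points, and the CL1-0 points of PSMB8 (13.6 to 16.7) and ERAP2 (10.9 to 14.9) lie under the band.

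The catalytic subunits of the immunoproteasome showed the largest changes of the set, in PSMB8 and PSMB9, and in PSMB10 a change among the smallest. PSMB10 and ERAP1 have no settled order: with the median over probe sets PSMB10 rose by 1.47 and ERAP1 by 1.39. PSMB8, which encodes beta5i with its chymotrypsin-like activity, read 13.6, 16.7 and 14.9 signal units in CL1-0 repeats 1, 2 and 3 and 2037, 2137 and 1412 in CL1-5. The CL1-0 arrays were all under the limit of measurement, so the change is a bound: PSMB8 was at least 68.6-fold higher in CL1-5 (means 15.0 ± 1.57 and 1862 ± 393, SD, n = 3 each; limma adjusted p = 5.76e-09). PSMB9, which encodes beta1i, read 133, 135 and 104 in CL1-0 and 4391, 4244 and 3794 in CL1-5. Unlike PSMB8 it was measured in both lines, and its lowest CL1-5 array lay far above its highest CL1-0 array. PSMB9 rose by a log2 fold change of 4.99 (SE 0.12, 31.8-fold, adjusted p = 4e-09). PSMB10, which encodes beta2i with its trypsin-like activity, read 239, 197 and 142 in CL1-0 and 599, 525 and 486 in CL1-5. Its CL1-0 arrays were spread more widely than those of PSMB8 or PSMB9, and the lines still did not overlap. PSMB10 rose by 1.47 (SE 0.17, 2.77-fold, adjusted p = 1.14e-04).

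The constitutive subunits that these 3 replace did not rise. PSMB5 read 4228, 3912 and 3265 in CL1-0 and 2716, 2763 and 2036 in CL1-5, with all CL1-5 arrays lower. PSMB5 fell by 0.61 (SE 0.14, adjusted p = 0.00507). PSMB6 read 4817, 4323 and 3515 in CL1-0 and 2547, 2528 and 1881 in CL1-5, again without overlap, and fell by 0.86 (SE 0.15, adjusted p = 0.00102). PSMB7 read 4607, 4491 and 3732 in CL1-0 and 4559, 4578 and 4102 in CL1-5. The lines overlapped for PSMB7, and its log2 fold change of 0.05 (SE 0.09, adjusted p = 0.698) did not pass and turned to -0.046 without CL1-0 repeat 3.

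Within each array the signal of an inducible subunit was set against that of the subunit it replaces, and the change of that log2 ratio between lines was taken; the level of the ratio has no meaning between probe sets. The ratio of PSMB8 to PSMB5 was higher in CL1-5 by 7.0 (SD 0.24 over the CL1-0 arrays and 0.08 over the CL1-5 arrays), and by 6.71, or 104-fold, with PSMB8 at its bound. The ratio of PSMB9 to PSMB6 was higher by 5.86 (SD 0.09 and 0.14), a 57.9-fold change. The ratio of PSMB10 to PSMB7 was higher by 1.42 (SD 0.21 and 0.10), a 2.68-fold change. In all 3 pairs the arrays of the lines did not overlap. The exact two-sided permutation p was 0.1 for each pair and 0.1 after Benjamini-Hochberg adjustment over the 3, the smallest that 3 against 3 arrays allow, so this design cannot reach 0.05 with that test.

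PSME1 encodes the alpha subunit of the PA28 cap. It read 962, 989 and 818 signal units in CL1-0 and 3690, 3382 and 3435 in CL1-5. The lines were well apart, and PSME1 rose by 1.92 (SE 0.09, 3.78-fold, adjusted p = 2.78e-07).

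Both subunits of the peptide transporter were higher in CL1-5. TAP1 read 263, 249 and 252 in CL1-0 and 3554, 3605 and 4126 in CL1-5. The spread between repeats was small beside the gap between lines, and TAP1 rose by 3.85 (SE 0.08, 14.4-fold, adjusted p = 2.83e-09). TAP2, read by its brightest probe set, was at 377, 338 and 324 in CL1-0 and 2461, 2336 and 2274 in CL1-5. TAP2 rose by 2.75 (SE 0.08, 6.71-fold, adjusted p = 2.04e-08). The other probe sets passing the filter for TAP2 gave 3.10 (SE 0.20, adjusted p = 1.04e-05; 82.5 to 134 in CL1-0 and 781 to 1132 in CL1-5) and 2.16 (SE 0.16, adjusted p = 2.21e-05; 76.2 to 94.9 and 337 to 504). All 3 put CL1-5 above CL1-0 without overlap, and the remaining TAP2 probe set was at or under the limit of measurement on every array.

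TAPBP encodes tapasin, the protein that bridges class I molecules and the transporter. It read 544, 546 and 559 in CL1-0 and 2125, 2506 and 2242 in CL1-5. No array of either line came near the other line, and TAPBP rose by 2.04 (SE 0.08, 4.12-fold, adjusted p = 1.14e-07). A further probe set rose by 2.17 with a wider error (SE 0.41, adjusted p = 0.003), its CL1-0 arrays at 228, 210 and 113 and its CL1-5 arrays at 1083, 1171 and 432. Repeat 3 was the low array of that probe set in both lines. The dimmest TAPBP probe set, with a mean of 22.7 ± 4.58 (SD, n = 3) in CL1-0 and 72.3 ± 15.7 in CL1-5 and no overlap, rose by 1.42 (SE 0.17, adjusted p = 2.91e-04).

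The trimming peptidases differed in how far they could be measured. ERAP1, an aminopeptidase that prefers longer peptides, read 221, 214 and 269 in CL1-0 and 723, 693 and 767 in CL1-5. It was present in both lines, and ERAP1 rose by 1.61 (SE 0.11, 3.05-fold, adjusted p = 2.78e-06). ERAP2, its relative encoded next to it, read 14.9, 11.8 and 10.9 in CL1-0 and 100, 134 and 137 in CL1-5. All CL1-0 arrays were under the limit of measurement, so ERAP2 was at least 4.83-fold higher in CL1-5 (adjusted p = 5.05e-07).

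The probe sets of the peptidases disagreed in size more than those of the other members. Of ERAP1's others, 1 rose by 2.11 (SE 0.17, adjusted p = 3.45e-05; 75.5 to 109 in CL1-0 and 349 to 494 in CL1-5), and a dim one, at 8.99 to 18.2 and 40.4 to 61.7, was at least 2.22-fold higher (adjusted p = 6.4e-04). The probe set 209701_at of ERAP1 read 31.5, 33.3 and 26.8 in CL1-0 and 38.0, 37.4 and 32.5 in CL1-5. Its lines overlapped, and its log2 fold change of 0.20 (SE 0.11) did not pass (adjusted p = 0.173). The next ERAP2 probe set read 6.24 to 9.49 in CL1-0 and 79.2 to 98.6 in CL1-5, at least 3.62-fold higher (adjusted p = 1.4e-06). Another ERAP2 probe set, 1554273_a_at, read 14.3, 18.4 and 15.9 in CL1-0 and 51.2, 64.0 and 22.5 in CL1-5. Here the call (at least 1.84-fold, adjusted p = 0.0162) rested on single arrays: the adjusted p was 0.06 without CL1-0 repeat 1, and 0.0561 without CL1-5 repeat 1 with the filter on 2 arrays.

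Counted by probe set, 17 of the 22 were higher in CL1-5, none was lower, 1 did not pass and 4 were too dim to be tested, against 21.2% of the 28152 probe sets tested that were called higher. Of the 18 that passed the filter, 5 did so through the CL1-5 arrays alone. The 4 dim probe sets belong to TAP2 (1), ERAP1 (1) and ERAP2 (2), and the highest of their signals was 19.1. Probe sets of a gene share its transcripts and are not independent replicates of the comparison.

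**Figure D2:**
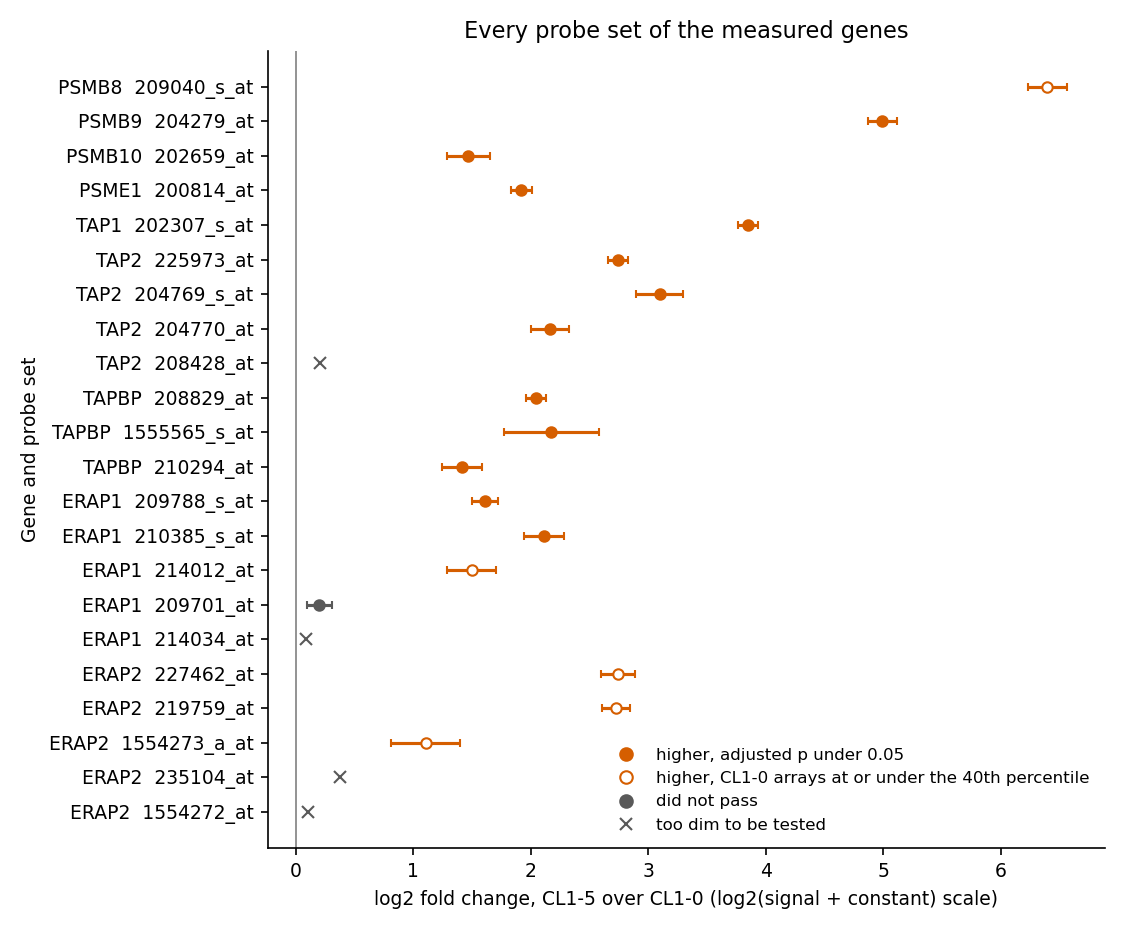
Log2 fold change of CL1-5 over CL1-0 for all 22 member probe sets by gene, with bars for the standard error of the limma fit over all probe sets, open circles where the CL1-0 arrays were at or under the 40th percentile, a grey circle where the test was not passed and crosses for the 4 too dim to be tested. Of the 18 tested, all but 209701_at of ERAP1 (0.20) and 1554273_a_at of ERAP2 (1.10) lie above 1.4.

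Repeat 3 stood apart in both lines by its ACTB control ratio. The log2 ratio of 3′ to 5′ signal of the ACTB controls, which rises as RNA degrades, was 0.53, 0.44 and 1.17 in CL1-0 repeats 1, 2 and 3 and 0.31, 0.40 and 0.91 in CL1-5. Of the 18 member probe sets that passed the filter, 14 in CL1-0 and 12 in CL1-5 read lower in repeat 3 than in the mean of repeats 1 and 2, with ratios between 0.516 and 1.35 and between 0.383 and 1.42. The share over all tested probe sets is not given, and several of the 18 read the same gene. These counts are therefore not read as a trait of the members. The lowest ratio in both lines was that of the second TAPBP probe set above. The part of RNA quality in these differences was not tested, and all 9 genes were higher in CL1-5 without repeat 3 of both lines, with the filter on the 2 arrays left per line.

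The rest of the proteasome was called in both directions, as were all tested genes, of which 23.3% were higher and 28.3% lower. Of 10 other subunits of the 20S core, 3 were higher and 2 lower, with a median log2 fold change of -0.05. Among them PSMA1 fell by 0.70 (adjusted p = 0.014), though its lines overlapped, and PSMB4 fell by 0.56 (adjusted p = 9.34e-04), while PSMA3 rose by 0.42 (adjusted p = 0.0126) and PSMA5 by 0.38 (adjusted p = 0.0188). The number lower was 1 without CL1-0 repeat 1 or 2, 4 without CL1-0 repeat 3 and 5 with the repeat number as a block, and the number higher was 1 without CL1-5 repeat 1 or 2. Of 15 subunits of the 19S cap, which recognises and unfolds ubiquitin-marked proteins, 2 were higher and 5 lower (median -0.19). The ubiquitin receptor PSMD4 fell by 1.13 (adjusted p = 1.64e-05), the scaffold subunits PSMD12 by 1.00 (adjusted p = 3.51e-05) and PSMD11 by 0.85 (adjusted p = 5.43e-04), and the deubiquitinase PSMD14 by 0.71 (adjusted p = 6.96e-05). With the block 4 were higher and 10 lower. The number lower was 9 without CL1-0 repeat 3, and the number higher was 1 without CL1-0 repeat 2, CL1-5 repeat 1 or CL1-5 repeat 2.

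Of 8 other activators, inhibitors and assembly factors of the proteasome, 1 was higher and 4 lower (median -0.29). This count, and that of the peptidases below, stand beside 23.3% higher and 28.3% lower over all tested genes. The assembly chaperones PSMG2 and PSMG1 fell by 0.71 (adjusted p = 6.63e-05) and 0.68 (adjusted p = 4.27e-05) and the PA200 activator PSME4 by 0.39 (adjusted p = 0.00235), while the inhibitor PSMF1 rose by 0.55 (adjusted p = 4.22e-04). Of 8 other peptidases of the cytosol and endosome, 2 were higher and 3 lower (median -0.23; 5 lower with the block). The leucine aminopeptidase LAP3 rose by 1.68 (adjusted p = 7.18e-07), with 763 to 945 signal units in CL1-0 and 2658 to 2813 in CL1-5, and the prolyl endopeptidase PREP by 0.75 (adjusted p = 5.46e-05). BLMH fell by 0.43 (adjusted p = 0.00832) and NPEPPS by 0.34 (adjusted p = 0.00838).

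Partners of tapasin and the transporter were higher more often than lower, whereas 23.3% of all tested genes were higher and 28.3% lower. TAPBPL, counted here as higher, passed the filter through its CL1-5 arrays alone. Of 8 class I loading partners, 5 were higher and 1 lower (median 0.74, or 0.66 at the bound; 3 higher without CL1-5 repeat 2). HLA-B rose by 1.85 (adjusted p = 3.03e-08) and HLA-C by 1.80 (adjusted p = 2.02e-07), both read by probe sets that bind related class I genes too, so the 2 values may share signal. The class I light chain B2M rose by 1.12 (adjusted p = 8.06e-07), with 5433 to 5599 signal units in CL1-0 and 11244 to 12504 in CL1-5. UGGT1, which checks the folding of glycoproteins in the endoplasmic reticulum, fell by 0.98 (adjusted p = 1.76e-05). That call depended on the probe set chosen: with the median over a gene's probe sets UGGT1 was not called lower.

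Genes of interferon signalling and class I transcription were next, to be read beside 23.3% higher and 28.3% lower over all tested genes. Of 17 tested, 10 were higher and 1 lower (median 0.62; 3 lower with the block or without CL1-0 repeat 3, and 2 without CL1-5 repeat 1 or 3). The feedback inhibitor SOCS1 was at least 15.4-fold higher (13.7 to 14.3 in CL1-0 and 370 to 425 in CL1-5). SOCS1 passed the filter through its CL1-5 arrays alone, so a difference was a condition of its being tested. NLRC5, the transactivator of class I genes, read 16.1, 27.2 and 19.8 in CL1-0 and 263, 300.2 and 290 in CL1-5. NLRC5 rose by 3.40 (SE 0.15, adjusted p = 1.83e-07). Its signals in CL1-0 repeats 1 and 3 lay under the limit of measurement of their arrays, so the size of this change is poorly measured. Only CL1-0 repeat 2 lay above that limit, which is why no bound is printed for NLRC5. IRF9 rose by 2.90 (adjusted p = 1.52e-08), and IRF1, a factor that binds the GAAA motif shown above, by 2.71 (adjusted p = 9.02e-08). RFX5, a DNA-binding partner of NLRC5, fell by 1.17 (adjusted p = 3.91e-06). The class II transactivator CIITA lay between 19.2 and 30.1 over both lines and did not pass (0.04, adjusted p = 0.857).

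**Figure D3:**
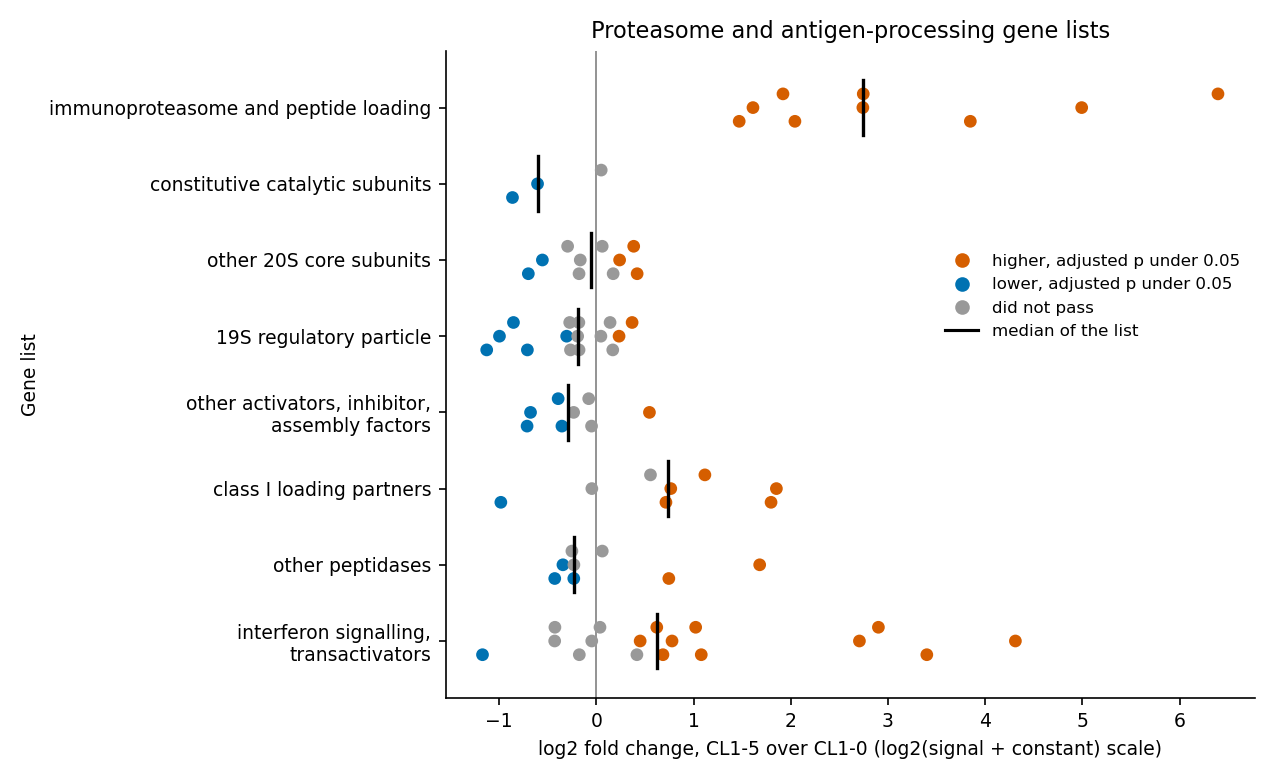
Log2 fold change of CL1-5 over CL1-0 for the tested genes of 8 lists, 1 point a gene, coloured by the limma call, with a black line for each list's median. The 9 immunoproteasome and peptide-loading genes lie between 1.47 and 6.39, to the right of all 20S, 19S and assembly genes, whose largest value is 0.55.

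The share of genes called higher was also set against the promoter motif. Among the 454 tested genes with the GAAA motif in a window, 166 were higher in CL1-5 (36.6%) and 104 lower, with a median log2 fold change of 0.08. Leaving out the 8 members among them, 158 of 446 were higher (35.4%). Among the 11355 tested genes whose windows lacked it, 22.6% were higher, with a median of -0.05. These shares are descriptions without a test, and most genes with the motif were not higher.

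PSMB8, PSMB9, TAP1 and TAP2 lie side by side in the MHC class II region, in the order TAP2, PSMB8, TAP1, PSMB9, and together span 38021 bases (chr6:32821831-32859851, RefSeq, GRCh38.p14). PSMB8-AS1, a noncoding antisense gene that overlaps PSMB8 and TAP1 in RefSeq's coordinates, was at least 5.36-fold higher in CL1-5 (mean 7.27 in CL1-0 and 137 in CL1-5, adjusted p = 1.08e-08). Like PSMB8, it passed the filter through its CL1-5 arrays alone, so a difference was a condition of being tested. The flanking class II genes had smaller values and low signals. Means in CL1-0 and CL1-5 were 25.1 and 41.1 for HLA-DOB and 23.2 and 26.8 for HLA-DQB2. They were 58.4 and 55.5 for HLA-DMB and 63.7 and 40.1 for HLA-DMA. With the limit of measurement at 19.5 to 20.3, the dimmest of these changes are poorly measured. HLA-DOB, next to TAP2, rose by 0.58 (adjusted p = 0.00387), and HLA-DQB2 beyond it had 0.16 (adjusted p = 0.242). HLA-DMB, next to PSMB9, had -0.07 (adjusted p = 0.644), and HLA-DMA fell by 0.58 (adjusted p = 0.00478). HLA-DQB2 shares sequence with near-identical class II genes, so its value is uncertain.

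The neighbours of the other members were called in both directions, as were tested genes in general. Beside TAPBP (chr6:33299694-33314078), the gene RGL2 rose by 1.02 (adjusted p = 2.51e-05), and WDR46 (-0.12), ZBTB22 (-0.02) and DAXX (-0.24) did not pass. RefSeq's ERAP1 (chr5:96760813-96935854, minus strand) extends over ERAP2 (chr5:96875984-96919716, plus strand). Beside them, CAST fell by 1.10 (adjusted p = 2.37e-06) and RIOK2 by 0.88 (adjusted p = 3.03e-05), while ELL2 rose by 1.82 (adjusted p = 2.22e-05) and RGMB by 0.40 (adjusted p = 0.00443). Beside PSME1 (chr14:24136194-24138962), DCAF11 rose by 0.36 (adjusted p = 0.0121) and FITM1 by 0.37 (adjusted p = 0.0255), and EMC9 (-0.26) and RNF31 (0.10) did not pass. Beside PSMB10 (chr16:67934506-67936850), LCAT fell by 0.56 (adjusted p = 0.00936), and PSKH1 (0.01), CTRL (-0.11) and SLC12A4 (-0.01) did not pass. In all, 7 of the 21 neighbours that are not members were higher, 4 were lower and 10 did not pass, with a median of -0.01. Over all tested genes 23.3% were higher and 28.3% lower, so these counts are not read as a trait of the neighbours.

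**Figure D4:**
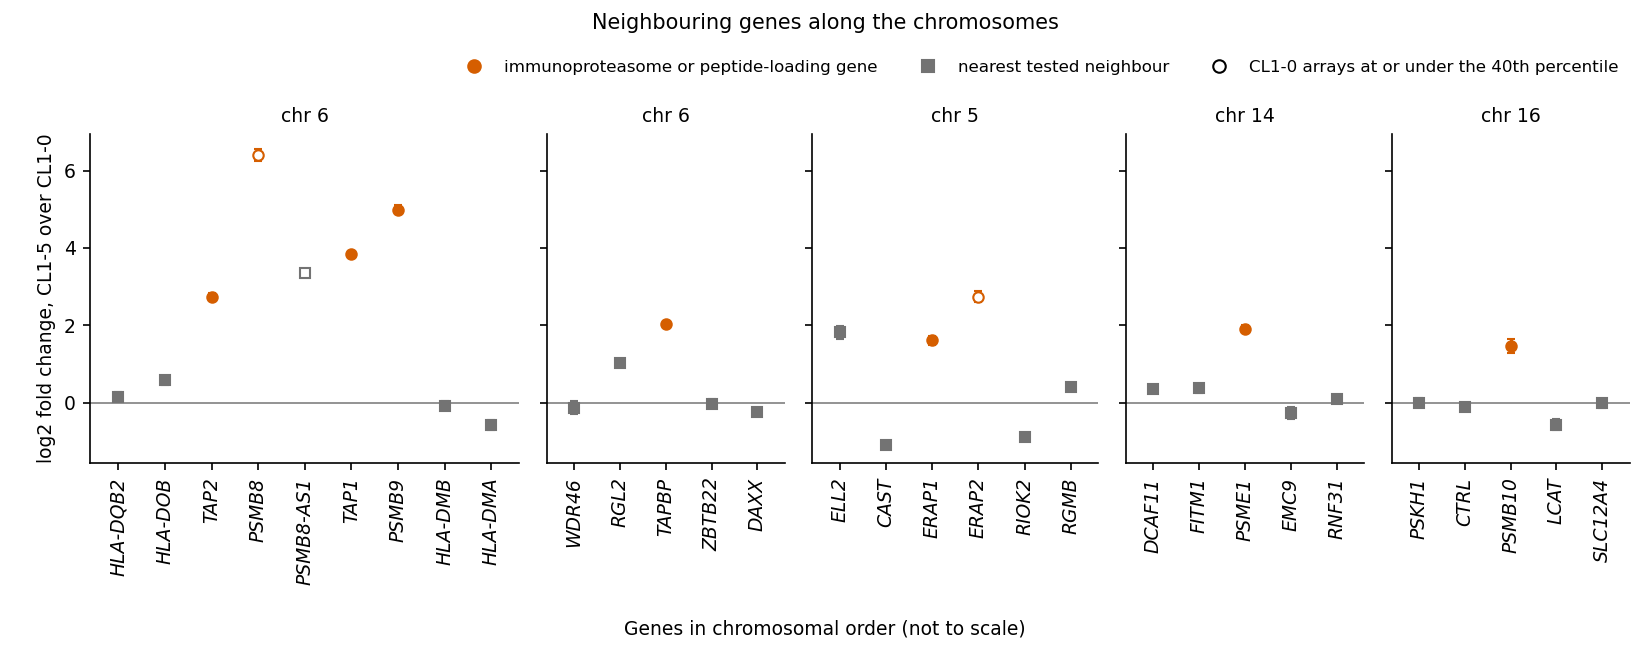
Log2 fold change of CL1-5 over CL1-0 for the members and their nearest tested neighbours in RefSeq gene order, by genomic group, with orange circles for members, grey squares for neighbours, open symbols where the CL1-0 arrays lay at or under the 40th percentile and bars for the standard error. The members stand at 1.47 to 6.39, and of the neighbours PSMB8-AS1 (3.35), ELL2 (1.82) and RGL2 (1.02) exceed 1.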

How the data were processed

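Per the labels, biotinylated cRNA from total RNA of 6 samples, 3 of CL1-0 and 3 of CL1-5, was hybridised to 1-colour Affymetrix arrays. The authors deposited linear intensity values for 54675 probe sets, made with MAS5 per the submitters' processing notes. Its version and later scaling are not given in the sources used. Detection calls and scan dates were not used here. Precision is limited by how many arrays there are. No column of other samples was present (0).

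The platform annotation gives 1 symbol for 41091 probe sets, several for 1801 and none for 11721, beside 62 controls. Symbols, gene order and promoters come from RefSeq (GRCh38.p14). The authors' build is not given in the sources used. A value of 6.85, the 10th percentile over the whole table, was added to each signal before log2, which understates the change of dim genes. Probe sets above the 40th percentile of the array in 3 or more of the 6 arrays were tested (28152). For each gene the brightest tested probe set was used, passing over suffix x (cross-hybridising) ones where possible, which gave 14828 of 19775 genes. The lines were fitted with limma 3.58.1 in R 4.3.3, using lmFit and eBayes with a trend and no block. Benjamini-Hochberg adjustment ran over all genes, or over all probe sets for single probe sets, with a threshold of 0.05. The median SE was 0.11. Adjusted p-values are limma's unless an exact permutation test is named. If no array of a line exceeded its 40th percentile, which stands in for background, the fold is printed as a bound that sets each dim array at that percentile.

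The members and the gene lists were chosen with earlier results of these data known, and no set test was run. Named are all members, PSMB5 to PSMB7, up to 4 called genes of each other list by size of change, the 2 nearest tested genes on either side of a member, and defining markers near background. RFX5 and CIITA were added after their values were seen. PSMA6, PSMC5, PSMD7, PSMD13 and LNPEP had no probe set of their symbol alone. Protein sequences were not used here.

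Deviations of same-numbered repeats from their line means correlated over genes at 0.475 (repeat 1), 0.280 (repeat 2) and 0.649 (repeat 3), so same-numbered arrays deviated in part alike. The labels do not say what a number marks, and whether the arrays were paired was not tested. Alternatives changed the constant, the filter, the scaling (quantile), the trend, array weights, the probe set per gene, the replicate block or the threshold, or left out arrays. Fits without repeat 3 of both lines and the alternatives over single probe sets were added after seeing the data. In simulated data for CL1-5 against CL1-0, in which 200 of 14828 genes were changed, 44% (log2 size 0.5), 84% (size 1), 98% (size 2) and 100% (size 4) were recovered, beside 3 false calls. The simulated noise was independent between arrays, without the correlation of same-numbered repeats. The real fit called far more genes, 3448 higher and 4196 lower, so these rates cannot be carried over to it.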

Additional observations from a re-analysis of the deposited data

How the results depend on the processing

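The 9 member genes were higher and 0 lower under every alternative that kept all 6 arrays. Leaving out a CL1-5 array left 7 higher, because PSMB8 and ERAP2 then failed the filter, and with the filter on 2 arrays all 9 were higher in each such fit. Member probe sets higher ranged from 12 to 18. The replicate block kept 9 member genes higher and changed no member call, but moved list counts: 5 of the other 20S subunits, 10 of the 19S subunits, 5 peptidases, 3 interferon signalling genes and 2 epithelial markers were lower, and 4 19S subunits higher. With array weights 4 other 20S subunits, 9 19S subunits, 5 peptidases, 5 interferon signalling genes and 3 epithelial markers were lower. With the median over probe sets of a gene 1 other 20S subunit was lower, 2 activators or assembly factors higher and 0 class I partners lower. With suffix x allowed 2 interferon signalling genes were lower, with no filter 1 leukocyte marker was lower, and with the filter at the 60th percentile 0 epithelial markers were lower. At an adjusted p under 0.01, 0 other 20S subunits were higher and 1 lower, and 0 19S subunits higher. Leaving out each array, with the filter on 3 or 2 arrays, gave 1 to 4 other 20S subunits higher and 1 to 4 lower, 1 to 2 19S subunits higher and 5 to 9 lower, 3 to 5 class I partners higher, 2 to 4 peptidases lower, 1 to 3 interferon signalling genes lower and 0 to 2 epithelial markers lower. PSMB7 ranged from -0.046 to 0.11 over these fits and was below 0 without CL1-0 repeat 3 (adjusted p 0.632). Apart from dim probe sets left untested by fewer arrays, the cause of these shifts was not tested. Dim signals limit PSMB8 and ERAP2 in CL1-0 to a bound, and 3 arrays a line limit every value. Over these settings 2692 to 4566 genes were higher and 3268 to 5729 lower.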
